A study of Mus musculus with 10 samples.

Results

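The immediate early genes are genes that neurons switch on within minutes of strong synaptic input, without new protein synthesis. They were followed here through 10 members, chosen by symbol: Arc, Fos, Fosb, Junb, Egr1, Egr2, Egr3, Egr4, Npas4 and Nr4a1. All 10 were found among the 22255 genes of the gene table, and all 10 were among the 14358 genes that had enough counts to be tested. The rule that names them uses symbols and no measured value. The questions were how the members varied together across the 10 libraries, whether their levels differed after AM6545, and how Arc compared with the 9 mRNAs that encode transcription factors.

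Calcium entering through glutamate receptors and voltage-gated channels activates kinases that phosphorylate CREB and the partners of SRF, factors already sitting on immediate early gene promoters. Most of the resulting mRNAs encode transcription factors, which return to the nucleus and act on later genes. Arc differs: it encodes a cytoskeleton-associated protein that promotes removal of AMPA receptors from the synapse, and its mRNA is carried into dendrites and translated there. In the hippocampus these mRNAs are widely used as a record of which neurons were recently active.

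RNA came from synaptoneurosomes, a preparation enriched in pinched-off and resealed synaptic endings, made from the hippocampus of wild-type C57Bl/6J mice. The 5 vehicle libraries came from mice given vehicle and the 5 AM6545 libraries from mice treated sub-chronically with AM6545. This compound blocks cannabinoid CB1 receptors and was designed to act mainly outside the brain. Dose, duration, age, sex and time from the last injection to dissection are not given in the sources used here, nor whether a library is 1 animal or a pool, so p-values measure the spread between these libraries.

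Library totals ran from 18106112 to 25899794 estimated counts, 16532 to 16867 genes were detected per library, and mitochondrially encoded genes held 4.16% to 6.10% of counts. Markers of excitatory neurons, 8 genes, summed to 1830 to 2440 CPM (counts scaled to the library total). The fraction held RNA of more than synapses: 10 oligodendrocyte markers summed to 12600 to 28800 CPM. Markers of choroid plexus and ependyma, 12 genes, spread from 429 to 9920 CPM across the vehicle libraries and from 2200 to 7650 CPM across the AM6545 libraries. The mRNAs of 20 neuronal transcription factors known from the cell body summed to 2220 to 2640 CPM. No marker was at 0. In a bulk fraction such as this, fewer cells of a type and less RNA per cell cannot be told apart, and neither can dendritic RNA and RNA carried over from cell bodies.

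Activity acts on these genes partly through their promoters. The windows of Fos, Egr2, Egr4 and Nr4a1 are therefore printed as examples, for their cAMP response element (CRE) cores. RefSeq promoter windows (build GRCm38.p6, 250 bases ending just before the annotated start) matched 7 of the 10 members; Arc, Egr1 and Egr3 are named only. Each sequence reads 5′ to 3′ on the gene's own strand, and capitals mark TGACG, the core of the CRE bound by CREB, or its reverse complement CGTCA. In the Egr2 window capitals also mark a CArG box, the SRF site CCATATATGG. The window of Fos, the partner of Jun proteins in the AP-1 factor, lies at chr12:85473640-85473889 on the plus strand. Those of the zinc finger factors Egr2 and Egr4 lie at chr10:67537619-67537868 (plus) and chr6:85513590-85513839 (minus), and that of the orphan nuclear receptor Nr4a1 at chr15:101266596-101266845 (plus).
Fos: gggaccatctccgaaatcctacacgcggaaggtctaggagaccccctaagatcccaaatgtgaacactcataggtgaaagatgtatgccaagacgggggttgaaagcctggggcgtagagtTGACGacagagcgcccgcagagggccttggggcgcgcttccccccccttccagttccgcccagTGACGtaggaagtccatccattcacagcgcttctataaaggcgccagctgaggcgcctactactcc
Egr2: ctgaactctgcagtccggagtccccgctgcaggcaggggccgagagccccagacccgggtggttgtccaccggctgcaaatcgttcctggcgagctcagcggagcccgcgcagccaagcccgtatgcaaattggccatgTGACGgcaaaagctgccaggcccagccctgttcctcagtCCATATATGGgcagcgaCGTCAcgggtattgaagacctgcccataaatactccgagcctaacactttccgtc
Egr4: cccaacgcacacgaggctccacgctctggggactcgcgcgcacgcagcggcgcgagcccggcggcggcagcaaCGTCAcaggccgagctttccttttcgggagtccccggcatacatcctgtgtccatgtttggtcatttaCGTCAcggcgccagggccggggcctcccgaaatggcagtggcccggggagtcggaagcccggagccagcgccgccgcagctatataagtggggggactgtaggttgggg
Nr4a1: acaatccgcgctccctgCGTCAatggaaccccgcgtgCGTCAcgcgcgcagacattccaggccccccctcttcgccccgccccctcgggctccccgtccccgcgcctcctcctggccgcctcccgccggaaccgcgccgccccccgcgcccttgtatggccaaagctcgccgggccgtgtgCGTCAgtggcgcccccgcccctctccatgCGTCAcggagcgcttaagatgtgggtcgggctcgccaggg

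The letters TGACG or CGTCA occurred in all 7 matched windows (the 4 printed, Fosb, Junb and Npas4), against 17.7% of the 32817 RefSeq windows of the same length. They stood at 2 places in the windows of Fos, Egr2, Egr4 and Npas4, at 4 in that of Nr4a1 and at 1 in those of Fosb and Junb. The full palindrome TGACGTCA was in 0 of the 7 windows and in 1.55% of all windows. A CArG box, CC and GG around 6 A or T letters, was in 1 of the 7, Egr2, and in 1.47% of all windows. TATATA was in 2 of the 7, Egr4 and Npas4, and in 5.25% of all. TATAAA or its complement was in 1 of the 7, Fos, and in 12.4% of all. GCGGGGGCG, a site bound by Egr proteins, was in 2 of the 7 (Fosb and Nr4a1) and in 2.57% of all, and GCGTGGGCG in 0 of the 7 and 0.536% of all. Both strands were searched, and every full palindrome also holds the core. These are matches of letters and not binding sites, and sites outside the 250 bases were not searched.

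Levels can be compared between genes only per length. Transcript counts divided by transcript length and scaled to a fixed sum per library (TPM, the usual per-length unit, computed here) gave the order Egr1, Junb, Arc, Egr3, Nr4a1, Egr4, Fos, Egr2, Npas4, Fosb. Mean TPM over the 10 libraries was 99.6 for Egr1, 68.3 for Junb and 60.5 for Arc, then 23.8 for Egr3, 22 for Nr4a1, 21.7 for Egr4 and 14.0 for Fos. Egr2 at 1.38, Npas4 at 1.2 and Fosb at 0.443 TPM stood far below the rest. Neighbours in this order mostly overlapped library by library: Egr1 ranged from 72.4 to 141 TPM, Junb from 52.2 to 86.6 and Arc from 36.6 to 78.2. There was no overlap between Arc and Egr3, whose highest library was at 30.3 TPM, nor between Fos, with a lowest library at 5.81 TPM, and Egr2, with a highest at 3.66. With the longest annotated transcript as the length of each gene, Egr4 and Nr4a1 changed places at 27.3 and 26.8 TPM. By the same measure as the first order, the dendritic mRNAs Camk2a and Ddn averaged 151 and 183 TPM, and the cell-body mRNAs Neurod2 and Prox1 averaged 37.1 and 15.8 TPM. Arc thus lay below the dendritic mRNAs named and above the cell-body mRNAs named, as Junb and, in mean, Egr1 did.

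No immediate early gene passed the test between AM6545 and vehicle. Of the 10, 5 were higher and 5 lower after AM6545, and the median log2 fold change was -0.001, beside -0.0057 over all 14358 tested genes. By edgeR's quasi-likelihood test with Benjamini-Hochberg adjustment, 0 of the 10 passed an adjusted p of 0.05 (adjusted p = 0.9998 for each), as did 0.0% of all tested genes. At an unadjusted p of 0.05 the count was 0 of 10 as well, against 1.88% of all genes, and 0 of 10 had groups that did not overlap, against 0.293% of all genes. DESeq2 and limma-voom likewise called 0 of the 10. With limma-voom and sample quality weights the median was -0.167, with Fos at -0.63, Npas4 at -0.406 and Egr1 at -0.225 (adjusted p = 0.9151 for each of these 3). On the log2 scale the estimates lay between -0.70 for Fosb and 0.18 for Egr2, and the standard errors between 0.11 for Egr3 and 0.54 for Fos.

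**Figure D1:**
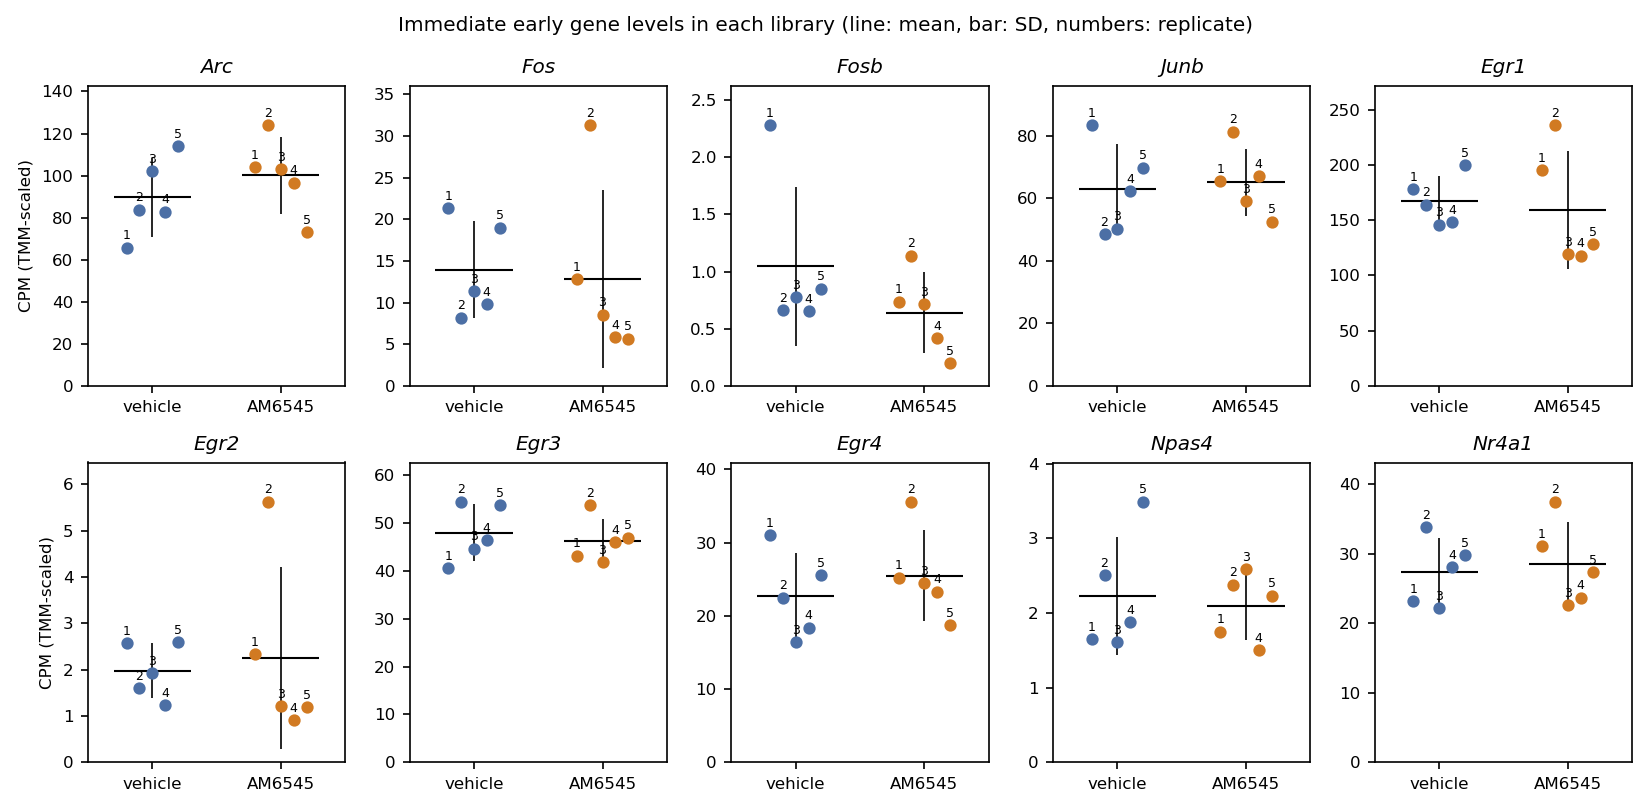
CPM (counts scaled to the library total, TMM-adjusted, linear axes) of each of the 10 genes in every library, vehicle left and AM6545 right, with numbers giving the replicate, lines the mean and bars the SD over 5 libraries. The groups overlap for all 10 genes, and AM6545 replicate 2 is the highest library for 6 of them.

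**Figure D2:**
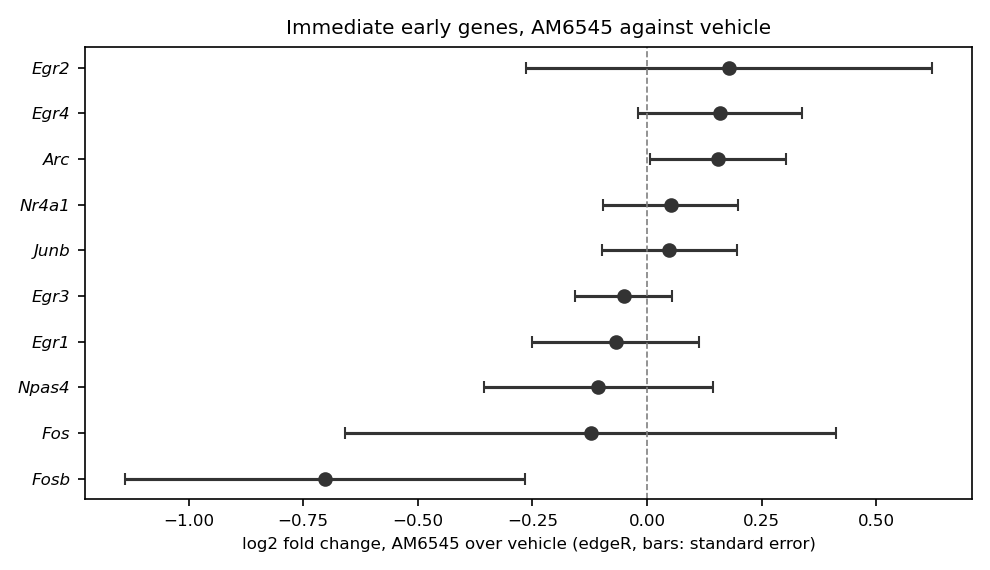
Log2 fold change of AM6545 over vehicle for the 10 genes (edgeR), with bars of 1 standard error. Estimates run from -0.70 for Fosb to 0.18 for Egr2, and the bars are widest for Fos, Egr2 and Fosb.

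Fos, Fosb and Junb encode subunits of AP-1, a dimer of a Fos and a Jun family protein that binds enhancers of later genes. Fos (ENSMUSG00000021250.14, chr12:85473890-85477273, plus strand, GRCm38 with GENCODE M21 gene models) was at 21.3, 8.19, 11.4, 9.83 and 19.0 CPM in vehicle replicates 1 to 5, and at 12.8, 31.3, 8.54, 5.83 and 5.69 CPM in AM6545 replicates 1 to 5. AM6545 replicate 2 was the highest library and AM6545 replicates 4 and 5 the lowest, so the AM6545 group enclosed the whole vehicle range. The group means were 13.9 ± 5.83 and 12.8 ± 10.7 CPM (SD, 5 libraries per group), a log2 fold change of -0.12 ± 0.54 (SE; edgeR, unadjusted p = 0.824). The estimate hung on single libraries: without AM6545 replicate 2 it was -0.76 (edgeR, unadjusted p = 0.0487, adjusted p = 0.9997), and without vehicle replicate 1 it was 0.08.

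Fosb, which also gives rise to the long-lived splice form ΔFosB, was the scarcest member, with 4 to 47 counts per library. It was at 2.28, 0.663, 0.778, 0.655 and 0.850 CPM in the vehicle libraries and at 0.738, 1.14, 0.716, 0.416 and 0.198 CPM in the AM6545 libraries (ENSMUSG00000003545.4, chr7:19302696-19310051, minus strand). Vehicle replicate 1 stood above all others, and only AM6545 replicates 4 and 5 lay below the vehicle range. The log2 fold change was -0.70 ± 0.44 (SE; edgeR, unadjusted p = 0.127). It was -0.21 without vehicle replicate 1, and -0.99 without AM6545 replicate 2 (edgeR, unadjusted p = 0.0499, adjusted p = 0.9997). The floor of 3 counts lay at 0.116 to 0.166 CPM across the libraries, close to the lowest Fosb values, and covers counting error only.

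Junb, a Jun family partner of Fos, was at 83.4, 48.5, 50.3, 62.3 and 69.8 CPM in vehicle and at 65.4, 81.3, 59.1, 67.0 and 52.5 CPM after AM6545 (ENSMUSG00000052837.8, chr8:84974484-84978718, minus strand). The highest library was a vehicle library, replicate 1, and every AM6545 value lay inside the vehicle range. The log2 fold change was 0.05 ± 0.15 (SE). Junb is a gene of 1 exon that overlaps an exon of Prdx2 on the opposite strand. Whether the counting used strand is not given in the sources used here, so its level is uncertain to that extent.

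The Egr genes encode zinc finger factors that share a GC-rich binding site, and several of these factors are opposed by the Nab corepressors. Egr1, the most abundant member per length, was at 178, 164, 146, 148 and 200 CPM in vehicle and at 195, 236, 119, 118 and 128 CPM after AM6545 (ENSMUSG00000038418.8, chr18:34859823-34864984, plus strand). Its AM6545 libraries split without a middle: replicates 1 and 2 were near or above the top of the vehicle range, and replicates 3, 4 and 5 were below all 5 vehicle libraries. The means were 166.9 ± 22.5 and 159.3 ± 53.7 CPM (SD, 5 libraries per group), with a log2 fold change of -0.07 ± 0.18 (SE; edgeR, unadjusted p = 0.714). The split was not tested, since it was seen in the values.

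Egr2 was at 2.57, 1.61, 1.92, 1.23 and 2.59 CPM in vehicle and at 2.33, 5.63, 1.21, 0.916 and 1.19 CPM after AM6545, from 22 to 109 counts per library (ENSMUSG00000037868.16, chr10:67535475-67542188, plus strand). The same 3 AM6545 libraries, replicates 3, 4 and 5, lay below the vehicle range, and replicate 2 lay far above it. The log2 fold change of 0.18 ± 0.44 (SE; edgeR, unadjusted p = 0.691) became -0.48 without AM6545 replicate 2.

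Egr3, which is itself a target of Egr1 and is needed for long-lasting memory, was the steadiest member. It was at 40.5, 54.4, 44.6, 46.4 and 53.6 CPM in vehicle and at 43.1, 53.6, 41.8, 45.9 and 46.9 CPM after AM6545, every AM6545 library within the vehicle range (ENSMUSG00000033730.5, chr14:70077203-70082614, plus strand; log2 fold change -0.05 ± 0.11, SE). Egr4 was at 31.0, 22.5, 16.4, 18.4 and 25.6 CPM in vehicle and at 25.2, 35.6, 24.5, 23.3 and 18.7 CPM after AM6545 (ENSMUSG00000071341.5, chr6:85511121-85513589, minus strand). AM6545 replicate 2 was the only library of its group above the vehicle range, and the log2 fold change was 0.16 ± 0.18 (SE; edgeR, unadjusted p = 0.383).

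Npas4 and Nr4a1 are members of other factor families. Npas4, a neuron-specific bHLH-PAS factor that answers calcium entry and shapes inhibitory synapses, was at 1.65, 2.51, 1.61, 1.88 and 3.49 CPM in vehicle and at 1.75, 2.38, 2.59, 1.5 and 2.23 CPM after AM6545, from 31 to 82 counts (ENSMUSG00000045903.10, chr19:4984355-4990316, minus strand). Its highest library was vehicle replicate 5, and its log2 fold change was -0.11 ± 0.25 (SE). Nr4a1 was at 23.2, 33.8, 22.2, 28.1 and 29.8 CPM in vehicle and at 31.1, 37.5, 22.6, 23.7 and 27.4 CPM after AM6545 (ENSMUSG00000023034.8, chr15:101254269-101274795, plus strand). AM6545 replicate 2 was again the only library above the vehicle range, with a log2 fold change of 0.05 ± 0.15 (SE).

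Arc was at 65.7, 83.8, 102, 82.9 and 114 CPM in vehicle and at 104, 124, 103, 96.7 and 73.0 CPM after AM6545 (ENSMUSG00000022602.15, chr15:74669083-74672570, minus strand). The groups overlapped over most of their range, with 1 AM6545 library above all vehicle libraries and none below them. The means were 89.8 ± 18.9 and 100 ± 18.2 CPM (SD, 5 libraries per group), and the log2 fold change was 0.16 ± 0.15 (SE; edgeR, unadjusted p = 0.314). With limma-voom and sample quality weights the estimate was -0.02. The lowest Arc library was vehicle replicate 1, which was the highest of all libraries for Fosb and Junb.

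No transcript of a member passed the test either. Of 36 annotated transcripts of the members in the transcript table, 10 were at 0 in every library, 13 were at 0 in some, and 15 passed the filter. Of these 15, 0 had an adjusted p under 0.05 by edgeR with Benjamini-Hochberg adjustment, against 0.00314% of the 31848 transcripts tested, and 0 had an unadjusted p under 0.05, against 1.97%. The smallest unadjusted p was 0.204, for the minor noncoding form Fos-202, and 8 transcripts were higher and 7 lower. Arc-201 and Arc-202, of 3055 and 3054 bases, held 65.5% and 34.5% of Arc counts, and the share of Arc-201 was 65.2% ± 4.38 in vehicle and 65.3% ± 3.28 after AM6545 (SD, 5 libraries per group). The main forms elsewhere were Egr1-202 with 86.1% of its gene's counts, Fos-201 with 92.6%, Egr2-201 with 95.4%, Npas4-201 with 85.7% and Nr4a1-201 with 81.2%, over all libraries together, while Egr4-201 and Junb-201 held all or nearly all.

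In several members the split between transcripts was unstable. All Fosb counts of a library fell on a single transcript: Fosb-201 in vehicle replicate 1 alone, with 47 counts, Fosb-205 in AM6545 replicates 1 and 4, and Fosb-207 in the rest. Nr4a1-202 ranged from 1.69% to 55.0% of Nr4a1 counts. Of the Egr3 counts, 90.9% lay on Egr3-202, a form of a single exon annotated as a retained intron, and 8.7% on the coding form Egr3-204. The share of Egr2-201 was 100% in all libraries but 1 vehicle library, where it was 30.6% and Egr2-202 held 69.4%, and that of Npas4-201 ranged from 50.2% to 100%. No transcript share is therefore read as splicing for Fosb, Nr4a1, Egr3, Egr2 or Npas4.

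The members differed strongly in how much they varied between libraries of 1 group. The SD of log2 CPM within groups was 0.83 for Fos, 0.78 for Egr2 and 0.75 for Fosb, against a median of 0.21 over all tested genes. These placed Fos, Egr2 and Fosb at percentiles 98.1, 97.7 and 97.4 of all tested genes. Npas4 (0.39), Egr1 (0.35), Egr4 (0.35), Arc (0.29), Junb (0.28) and Nr4a1 (0.28) followed, at percentiles 86.9 down to 71.0, and Egr3 at 0.16 was at percentile 26.1. From the lowest to the highest library, Fosb spanned 11.5-fold, Egr2 6.15-fold, Fos 5.5-fold and Egr3 1.34-fold.

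Low counts widen such spreads, so each gene was also set beside genes of its own abundance. The edgeR biological coefficient of variation, which takes counting noise out, was 0.445 for Fos where the trend at its abundance was 0.163. It was 0.456 for Egr2 against 0.269 and 0.426 for Fosb against 0.296. Arc, at 0.172 against 0.135, was near its trend, as were Junb at 0.17 against 0.136 and Nr4a1 at 0.168 against 0.143. Egr1 at 0.203 against 0.135 and Egr4 at 0.201 against 0.146 lay further above theirs. Npas4 at 0.257 against 0.267 and Egr3 at 0.122 against 0.138 were below theirs.

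Across the 10 libraries several transcription factor members varied together, with the highest correlations among Fos, Egr1 and Egr2. Of the 45 pairs of members, 41 had a positive Pearson r of log2 CPM, and the median r was 0.395, beside a median of -0.0 and a 5th to 95th percentile range of -0.66 to 0.68 over all pairs of tested genes. An r of at least 0.8 was found in 5 of the 45 pairs, against 1.67% of all 103068903 pairs. The same 5 pairs had a Benjamini-Hochberg adjusted permutation p under 0.05 over the 45 pairs, both for r and for Spearman's rho. Any 2 genes here share libraries, depth and tissue makeup.

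Fos and Egr2 gave r = 0.94 (permutation p = 6e-05, adjusted p = 0.00202) and rho = 0.939 (permutation p = 0.00014, adjusted p = 0.0042). Egr1 and Egr2 gave r = 0.931 (permutation p = 9e-05, adjusted p = 0.00202) and rho = 0.939 (p = 0.00026, adjusted p = 0.0042). Fos and Egr1 gave r = 0.884 (permutation p = 0.00084, adjusted p = 0.0126) and rho = 0.83 (p = 0.00478, adjusted p = 0.043). These 3 genes, an AP-1 subunit and a pair of Egr factors, thus ordered the libraries in nearly the same way.

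The other pairs past the threshold were also between AP-1 and Egr genes or within AP-1. Fos and Fosb gave r = 0.817 (permutation p = 0.00258, adjusted p = 0.029) and rho = 0.939 (p = 0.00028, adjusted p = 0.0042). Junb and Egr4 gave r = 0.823 (permutation p = 0.00362, adjusted p = 0.0326) and rho = 0.818 (p = 0.006, adjusted p = 0.045). Fosb and Egr2 passed by rho alone (rho = 0.903, permutation p = 0.00093, adjusted p = 0.0105; r = 0.651, permutation p = 0.051, adjusted p = 0.164).

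The 5 values of r stayed high without the 2 libraries most distant for the gene named first, a check that does not look at the other gene. Leaving out the pair of libraries most distant from the median of the gene named first gave an r of 0.894 for Fos and Egr2, 0.884 for Egr1 and Egr2, 0.833 for Fos and Egr1, 0.797 for Fos and Fosb and 0.896 for Junb and Egr4. For Junb and Egr4 the libraries left out were vehicle replicates 1 and 2, so AM6545 replicate 2, the highest for Egr4, stayed in. Without AM6545 replicate 2 alone, r of Junb and Egr4 was 0.764. Within the 5 vehicle libraries r ran from 0.734 (Fos and Egr1) to 0.875 (Fos and Egr2), and within the 5 AM6545 libraries from 0.857 (Fos and Fosb) to 0.98 (Fos and Egr2). The number of pairs past the adjusted threshold was less steady, at 3 to 6 when 1 library was left out. It was 3 without vehicle replicate 1, 3 without AM6545 replicate 2, 3 without AM6545 replicate 5, and 0 without both vehicle replicate 1 and AM6545 replicate 2, a setting chosen after seeing the data.

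Egr3, Npas4 and Nr4a1 were in none of the 5 pairs. Egr3 and Nr4a1 had r = 0.769 (permutation p = 0.0122, adjusted p = 0.0915) and rho = 0.721 (p = 0.0232, adjusted p = 0.134). Fos with Egr3 gave r = 0.19, Fos with Npas4 r = 0.22 and Fos with Nr4a1 r = 0.381, with permutation p of 0.59, 0.539 and 0.273. Nr4a1 had r = 0.705 with Egr1 (permutation p = 0.0245, adjusted p = 0.122) and rho = 0.685 (p = 0.0355, adjusted p = 0.145). With Egr2 it had r = 0.56 (permutation p = 0.089, adjusted p = 0.222) and rho = 0.43. With Egr4 its r was 0.394 (permutation p = 0.26, adjusted p = 0.488), near its r with Fos. Without AM6545 replicates 2 and 4, the most distant libraries for Egr1 and Egr2, r was 0.485 with Egr1 and 0.074 with Egr2. Without vehicle replicate 3 and AM6545 replicate 2, the most distant for Egr4, r with Egr4 was -0.301. The lowest r of all 45 was -0.166, between Fosb and Egr3.

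**Figure D3:**
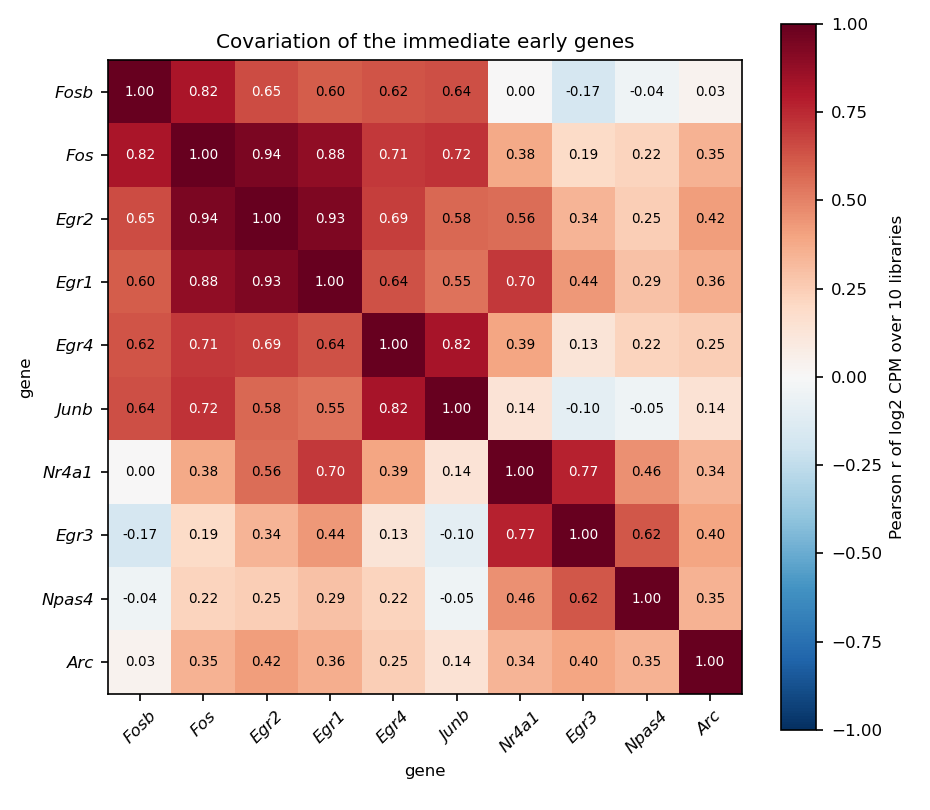
Pearson r of log2 CPM over the 10 libraries for each pair of the 10 genes, as a colour from blue (negative) to red (positive) with the value in each cell. Fos, Egr1 and Egr2 form the strongest block (0.884 to 0.94), and the row of Arc holds values of 0.033 to 0.421.

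The shared pattern can be read from single libraries. AM6545 replicate 2 was the highest library for 6 members and among the top 3 for 9, and vehicle replicate 5 was among the top 3 for 9. AM6545 replicate 5 was among the lowest 3 for 7 members and AM6545 replicate 4 for 5. High and low libraries of the shared pattern thus occurred together in the AM6545 group, whose mean log2 CPM over the 9 transcription factor members had an SD of 0.45 (mean 3.67), beside 0.26 in vehicle (mean 3.78, 5 libraries per group). The difference in spread was not tested.

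Over all 10 libraries Arc had a lower median correlation with the transcription factor members than these had among themselves, but the order turned around without 1 library, and the difference was not tested. Its r with the other 9 had a median of 0.348 and a range of 0.033 (Fosb) to 0.421 (Egr2), beside a median of 0.553 among the 36 pairs of the 9. None of the 9 pairs with Arc had an unadjusted permutation p under 0.05 for r, and the smallest was 0.227 (adjusted p = 0.465, Arc and Egr2). Arc and Fos gave r = 0.349 (permutation p = 0.322, adjusted p = 0.516) and rho = 0.455 (permutation p = 0.191).

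The relation of Arc to the others hung on single libraries. Without vehicle replicate 1, low for Arc and high for Fos, the median r of Arc with the other 9 was 0.694, above the 0.562 among the 36 other pairs. Without AM6545 replicate 2, high for Arc and Fos alike, it was 0.056, beside 0.374. Without both it was 0.514, beside 0.346. Leaving out any other single library kept the median of Arc below that of the 36 pairs. For Arc and Fos, r was 0.805 without vehicle replicate 1, 0.056 without AM6545 replicate 2, and 0.76 without vehicle replicate 1 and AM6545 replicate 5, the most distant from the Arc median. Within groups, r of Arc and Fos was -0.076 in vehicle and 0.824 after AM6545, and r of Arc and Fosb was -0.626 and 0.976. With 5 libraries each, the difference between the groups was not tested.

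**Figure D4:**
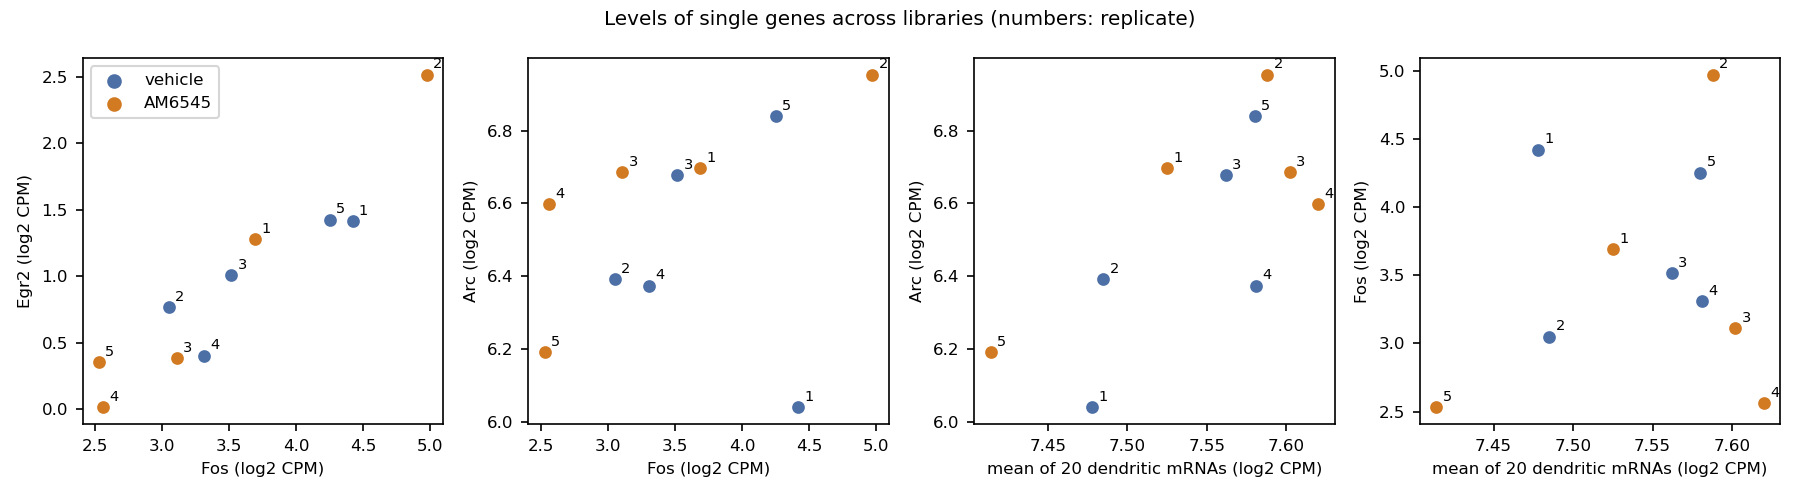
Log2 CPM of single genes against each other, 1 point per library, numbered by replicate and coloured by group. Fos and Egr2 lie along a line (r = 0.94), while vehicle replicate 1 sits apart where Arc is set against Fos (r = 0.349); the other panels set Arc (r = 0.713) and Fos (r = 0.168) against the mean of 20 dendritic mRNAs.

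Arc set against the mean of the other 9 gave the contrast directly. Log2 CPM of Arc minus the mean log2 CPM of the 9 was 1.97, 2.71, 3.13, 2.82 and 2.78 in vehicle replicates 1 to 5, and 2.89, 2.57, 3.14, 3.28 and 2.90 in AM6545 replicates 1 to 5. Vehicle replicate 1 was the lowest, and AM6545 replicates 3 and 4, 2 of 5, lay above every vehicle library, replicate 3 by very little. The means were 2.68 ± 0.43 and 2.96 ± 0.27 (SD, 5 libraries per group), a difference of 0.27 that was smaller than the vehicle SD. It ranged from 0.10 to 0.39 when 1 library was left out, with the 0.10 reached without vehicle replicate 1.

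Arc was next set beside 20 other mRNAs known from dendrites. Its r with their mean log2 CPM was 0.713 (permutation p = 0.0207, adjusted p = 0.544 over 34 relations of Arc and Fos with 17 library measures) and rho was 0.527 (permutation p = 0.123, adjusted p = 0.92). The relation failed the adjustment and rested on 2 libraries, since r was 0.368 without vehicle replicate 1 and AM6545 replicate 5. Of the 20 mRNAs, 16 had a positive r with Arc (median 0.401), where 50% of all tested genes did. The share was no higher than in the upstream regulators described below, where 26 of 32 had a positive r with Arc (median 0.166). The dendritic values included those of Camk2a (0.544) and Kif5a (0.524), while Ddn was at -0.138 and Homer2 at -0.109. The highest was Gria2 at 0.652, and the lowest were Itpka at -0.468 and Nrgn at -0.45. Gria2, Itpka and Nrgn were named after their values were seen. For Fos, the dendritic mean gave r = 0.168 (permutation p = 0.643), 12 of the 20 were positive and the median was 0.019. With the 20 cell-body transcription factor mRNAs, the median r was 0.164 for Arc and -0.004 for Fos.

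Heat shock and tissue-handling genes were positively correlated with Fos across the libraries. All 12 had a positive r with Fos, from 0.216 to 0.689 (median 0.405), where 51.4% of tested genes were positive, and 3 of 12 had a positive r with Arc (median -0.047). The mean of the 12 gave r = 0.641 with Fos (permutation p = 0.0455, adjusted p = 0.544) and rho = 0.515 (p = 0.135, adjusted p = 0.92), and r = 0.128 without vehicle replicate 1 and AM6545 replicate 2. Summed, the 12 reached 4850 to 7660 CPM in vehicle and 4860 to 7970 CPM after AM6545. With Fos, the means of 8 oligodendrocyte precursor markers gave r = -0.637 (permutation p = 0.048, adjusted p = 0.544) and rho = -0.648 (p = 0.0486, adjusted p = 0.843), at 584 to 734 CPM in vehicle and 506 to 1060 CPM after AM6545. The 10 oligodendrocyte markers gave r = -0.474 with Fos (permutation p = 0.168, adjusted p = 0.818) and rho = -0.648 (p = 0.0496, adjusted p = 0.843). None of the 34 relations had an adjusted p under 0.05. With Egr1, which was not tested, r was -0.74 for oligodendrocyte markers, -0.695 for precursor markers and 0.575 for the heat shock mean. The part of these measures in the shared pattern of Fos, Egr1 and Egr2 was not tested.

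Around the 10 members, no gene of the wider pathway passed the adjusted test between AM6545 and vehicle. Over all 14358 tested genes, 6906 were higher and 7452 lower after AM6545. Of 24 other rapidly induced transcription factor genes, 22 were tested: 9 were higher and 13 lower after AM6545, with a median log2 fold change of -0.04. None had an unadjusted p under 0.05. Mafk, a small Maf protein, was at 0.10 ± 0.11 and Crem, a CRE-binding repressor, at -0.15 ± 0.10 (log2 fold change, SE), the smallest p in each direction. Jun, the main partner of Fos, was at 0.06 ± 0.12.

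Several of these genes shared the library pattern of Fos. An r with Fos of at least 0.8 was found for 3 of the 22, Nr4a2 (0.895), Fosl2 (0.88, named after its value was seen) and Nr4a3 (0.868), against 0.536% of the 14357 other tested genes. The orphan receptor Nr4a2 was at 104, 81.9, 84.2, 89.8 and 97.6 CPM in vehicle and at 89.9, 132, 70.5, 84.1 and 66.9 CPM after AM6545. As with Fos, AM6545 replicate 2 was highest and AM6545 replicate 5 lowest. Its relative Nr4a3 ranged from 13.9 to 22.2 CPM in vehicle and from 13.9 to 29.3 CPM after AM6545. Log2 fold changes were -0.04 ± 0.15 for Nr4a2 and -0.02 ± 0.18 for Nr4a3 (SE). Jun had r = -0.062 with Fos and r = 0.729 with Arc. The median r of the 22 genes was 0.295 with Fos and -0.044 with Arc, beside 0.014 and 0.001 over all tested genes.

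Effector genes act downstream of activity at the synapse and in signalling. Of 38 listed, 37 were tested, 14 higher and 23 lower (median log2 fold change -0.05, none with an unadjusted p under 0.05), and their median r was 0.048 with Fos and 0.063 with Arc. The secreted neuropeptide precursor Vgf was at 0.16 ± 0.14 and Lonrf3 at -0.44 ± 0.26 (log2 fold change, SE). Homer1, a postsynaptic scaffold with an activity-induced short form, was at -0.09 ± 0.11 with r = 0.609 with Arc and 0.144 with Fos. Nptx2, which clusters AMPA receptors, was at 0.08 ± 0.16, and Dusp1, a phosphatase that switches off MAP kinases, at -0.11 ± 0.10 with r = 0.552 with Fos.

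Of 32 upstream regulators, 19 were higher and 13 lower (median 0.03). The CREB relative Atf1 had an unadjusted p under 0.05 and was lower at -0.25 ± 0.11 (SE; edgeR, unadjusted p = 0.0303, adjusted p = 0.9998). It averaged 14.6 ± 1.13 CPM in vehicle and 12.3 ± 1.17 CPM after AM6545, with 4 of 5 AM6545 libraries below all vehicle libraries. Rps6ka5, a kinase that phosphorylates CREB and histone H3, was at 0.22 ± 0.15, Creb1 at -0.08 ± 0.09 and Srf at 0.07 ± 0.13. Srf had an r of -0.793 with Fos, the lowest of the 32.

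Of the 20 dendritic mRNAs, 9 were higher and 11 lower (median -0.02), with Kif5a, a kinesin heavy chain, at 0.22 ± 0.14, Homer2 at -0.17 ± 0.12, Camk2a at 0.08 ± 0.12 and Ddn at -0.11 ± 0.13. Of the 20 cell-body transcription factor mRNAs, 4 were higher and 16 lower (median -0.08), beside 6906 higher and 7452 lower over all tested genes. That split was not tested. Lhx2 was at 0.10 ± 0.09, the granule cell factor Prox1 at -0.20 ± 0.12 and Neurod2 at -0.01 ± 0.09. Neither list held a gene with an unadjusted p under 0.05. Of the 12 heat shock genes, 5 were higher and 7 lower (median -0.06). The endoplasmic reticulum chaperone Hspa5 was lower at -0.25 ± 0.12 (SE; edgeR, unadjusted p = 0.049, adjusted p = 0.9998) and the mitochondrial chaperone Hspd1 was at 0.10 ± 0.13. No gene of any list had an adjusted p under 0.05 by edgeR, DESeq2 or limma-voom.

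**Figure D5:**
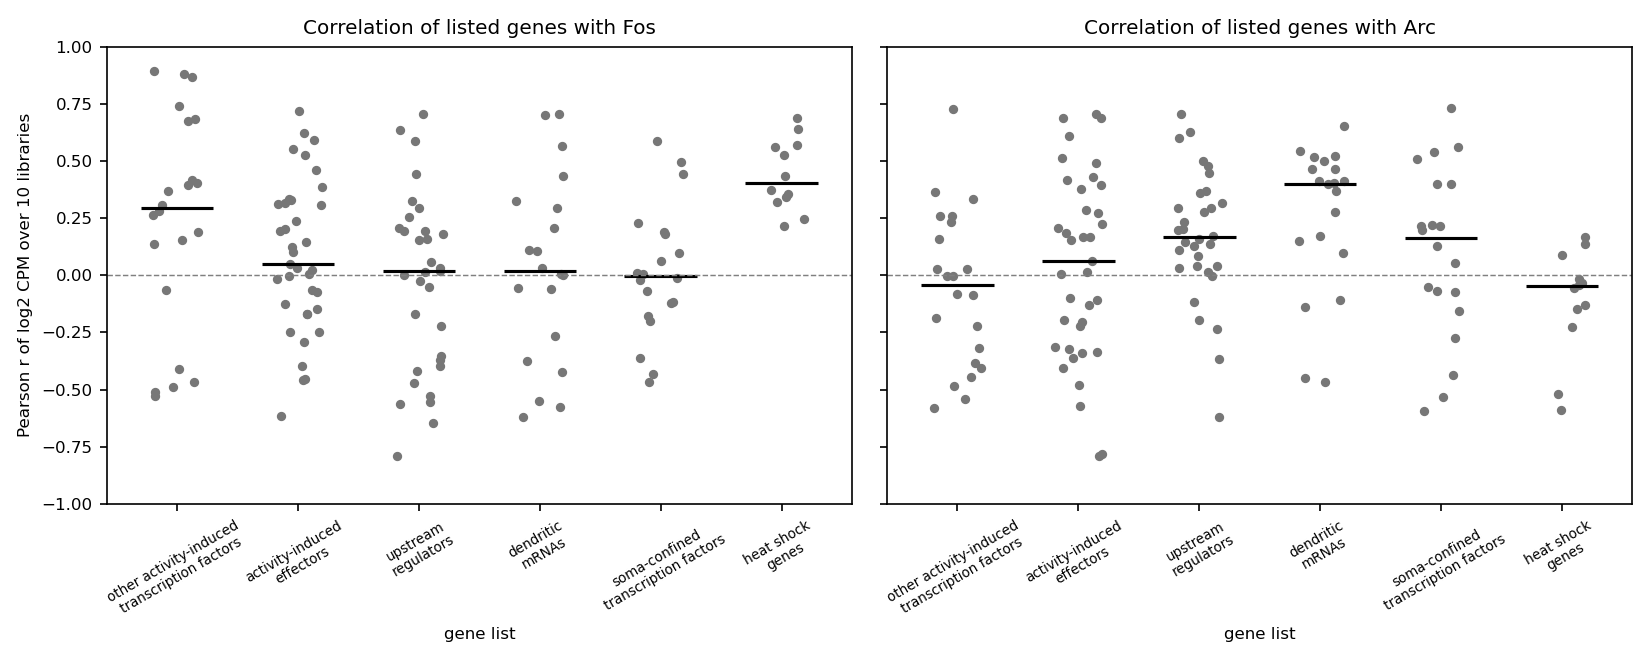
Pearson r of log2 CPM over 10 libraries of each listed gene with Fos (left) and with Arc (right), 1 point per gene, by gene list, with a bar at the median of each list. With Fos, all 12 heat shock genes lie above 0 (median 0.405), and with Arc the dendritic mRNAs have the highest median (0.401).

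The genes whose pattern was most like that of the members were sought among 10136 other tested genes with a mean log2 CPM of at least 3. With Arc they were Zfhx2 (r = 0.961), Larp4 (0.923), Gna13 (0.907), Phtf2 (0.883) and Ankhd1 (0.878), over 10 libraries. With the mean of the other 9 members they were 9330159F19Rik (r = 0.966), Nav2 (0.939), Tbc1d1 (0.929), Nuak1 (0.925) and Arfgef3 (0.903). The lists shared no gene. These are the highest of many values and are given as a description, without a test.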

How the data were processed

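RNA of hippocampal synaptoneurosomes from 10 libraries, 5 per group, was measured by RNA-seq with a SMARTer kit for very small inputs, per the labels' protocols. Values were deposited as 1 gene and 1 transcript table. The authors deposited estimated counts per gene and per transcript, made with Salmon 1.5.2 on mm10 per the submitters' processing notes; the annotation release and the use of strand are not given in the sources used here. That the values are estimated counts was read from the deposited tables, where 38.6% of gene values were not whole. Groups and replicate numbers came from the sample titles. The members and gene lists were chosen with earlier results of these data known.

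Counts were rounded and tested with edgeR 4.0.16 in R 4.3.3: TMM scaling, filterByExpr (minimum count 10, minimum total 15), robust quasi-likelihood dispersions, a design of group alone, and Benjamini-Hochberg adjustment over all 14358 genes or 31848 transcripts, at a threshold of 0.05. Tests were two-sided. CPM were scaled by TMM, and log2 CPM had a prior count of 2. Correlations used permutation tests with 100000 resamples (Python 3.11.15, scipy 1.17.1). TPM were computed from transcript counts and GENCODE M21 lengths, which 0.732% of counts lacked. Symbols matched 22155 of 22255 gene identifiers and names 101527 of 102392 transcripts; 11 gene identifiers carried the version of M21, so coordinates and exon structures are those of M21, not of the release used for counting. The fits were tested on simulated counts.

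Named genes were the 10 members, from each list the gene of smallest unadjusted p in each direction, 12 genes always named, and the 5 genes most like Arc and like the mean of the other 9; any other gene is said to be chosen later. Alternatives were DESeq2 1.42.0 size factors and Wald test, total count scaling, limma-voom 3.58.1 with quality weights, other filters, a prior count of 0.5, covariates for choroid plexus or dentate granule markers, the replicate number as a block and leaving out each library. The labels give no batch. Reads amplified without molecular identifiers are not independent molecules, and errors of splitting reads between transcripts are not in the standard errors.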

Additional observations from a re-analysis of the deposited data

Results flagged for a closer look

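Fos stood at 31.3 CPM in AM6545 replicate 2, with the next library of its group at 12.8 CPM and the lowest at 5.69 CPM. The gap to the next library was 0.722 of the range of the group. Fosb stood at 2.28 CPM in vehicle replicate 1, where the next vehicle library was at 0.85 CPM and the lowest at 0.655 CPM, a gap of 0.88 of the range. Both exceed Dixon's 95% limit for 5 samples, which assumes normally distributed values. For the members the ratio was taken on CPM and was not computed on log2 CPM. On the log2 scale Fos was at 4.971, with the next library at 3.691 and the lowest at 2.531. Fosb was at 1.247 on that scale, with the next at -0.086 and the lowest at -0.419. In 22 groups of 5 libraries looked at in this way, these were the 2 found. For normally distributed values, chance flags about 1 in 20 groups, or 1.1 of the 22.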

How the results depend on the processing

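The counts of members, listed genes and member transcripts with an adjusted p under 0.05 were 0 in every setting run, with unadjusted counts of 0 to 2 members when 1 library was left out (2 without AM6545 replicate 2, Fos and Fosb). Fosb was dropped by the filter of at least 10 counts in every library. The median log2 fold change of the members ran from -0.133 to 0.087 with 1 library left out and was -0.167 with limma-voom quality weights, which also gave -0.63 for Fos, -0.406 for Npas4 and -0.225 for Egr1. Estimates changed sign with limma-voom quality weights for Arc (-0.025), Egr2 (-0.414), Nr4a1 (-0.023), Jun (-0.003) and Neurod2 (0.007), and with the dentate granule covariate for Neurod2 (0.004); the cause was not tested. Leaving out 1 library gave log2 fold changes on both sides of 0 for Fos (-0.756 to 0.08), Junb (-0.043 to 0.171), Egr1 (-0.253 to 0.023), Egr2 (-0.476 to 0.385), Npas4 (-0.199 to 0.117), Nr4a1 (-0.065 to 0.139), Jun (-0.013 to 0.122), Nr4a2 (-0.231 to 0.044), Nr4a3 (-0.241 to 0.071), Nptx2 (-0.053 to 0.182), Camk2a (-0.013 to 0.137) and Neurod2 (-0.044 to 0.034). With the replicate number as a block, Egr2 was at -0.075. The median r of residuals was then 0.54 over the 45 pairs and 0.642 for Arc with the other 9, above the 0.499 among the other 36. Each number holds 2 libraries, so these r rest on 5 within-number differences and not on 10 separate libraries. Pairs past the threshold were not counted with the block. Libraries of the same number deviated together with r of -0.14, -0.186, 0.232, 0.393 and 0.065, and 3 of 5 correlated best with their own number. Whether the number pairs the libraries was not tested. The labels do not say what a shared number means, so the main fits did not use it. With 1 library left out, the median r ran from 0.224 to 0.586 over the 45 pairs, from 0.056 (without AM6545 replicate 2) to 0.694 (without vehicle replicate 1) for Arc with the other 9, and from 0.374 to 0.6 among the other 36 pairs, and 3 to 6 pairs passed the threshold. By Spearman's rho the median of the 36 was 0.448. With residuals from the group means 10 pairs passed, but that permutation over all 10 libraries did not allow for the means taken out. Its p-values can be too small. Without both vehicle replicate 1 and AM6545 replicate 2, chosen after seeing the data, the median was 0.514 for Arc with the other 9 and 0.346 for the 36, and 0 pairs passed, with 8 libraries left. Arc minus the mean of the others differed between groups by 0.096 to 0.385 with 1 library left out. The ratio of Arc to Egr1 per length was 0.607, or 0.856 with the longest transcript, where lengths differ by construction. Depth limits Fosb most, at 4 to 47 counts, then Egr2 and Npas4.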
